A study of Mus musculus with 10 samples.

Results

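The 8 genes described here encode cytokines of the IL-1 and IL-36 family that had a row in both deposited gene tables, out of 9779 genes in both. They were taken by gene name: the agonists Il1b, Il36a, Il36b, Il36g, Il33 and Il18, and the receptor antagonists Il1rn and Il36rn. All 8 passed the filter on low counts that left 5245 genes in the test.

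The tissue was ear skin from c57/Bl6 mice that were 6 to 8 weeks old. The benzamil ears (n = 4) were given imiquimod on the skin, a drug that activates Toll-like receptors and brings on an inflammation resembling psoriasis, along with benzamil. Benzamil is related to amiloride and inhibits the epithelial sodium channel. The DMSO ears (n = 4) received imiquimod with the solvent DMSO. The untreated skin (n = 2) received neither, so effects of imiquimod and of DMSO cannot be told apart against it. The protocol ran for 6 days, and no allele is named. All groups share the strain, and the titles of the untreated libraries alone carry the label WT. The sample labels give ear skin throughout, whereas the series' design text gives back skin for the untreated control, so treatment and body site cannot be told apart in those comparisons either. No label says that the libraries came from separate animals, so p-values measure the spread between these libraries, which may be technical.

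The question behind the benzamil comparison, per the series' text, is how blocking the sodium channel changes gene expression in inflamed skin. IL-1 cytokines signal through receptors that recruit the adaptor MyD88 and activate NF-kB. IL-1β acts through the IL-1 receptor, and the 3 IL-36 agonists act through the IL-36 receptor, whose ligand-binding chain is encoded by Il1rl2. The antagonists IL-1Ra, from Il1rn, and IL-36Ra, from Il36rn, bind the same receptors without activating them. In skin, keratinocytes are a main source of the IL-36 cytokines, and loss of IL-36Ra in people causes generalized pustular psoriasis. IL-33 is an alarmin held in the nucleus of epithelial cells. IL-18 is stored in keratinocytes as a precursor that caspase-1 cuts, as it also does the precursor of IL-1β. Only RNA was measured here, so neither protein nor its cutting is seen.

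The libraries held 138440 to 375455 reads in the joined genes in benzamil ears, 259262 to 935714 in DMSO ears and 71144 to 74614 in untreated skin. A single read was therefore worth 2.88 to 7.53 CPM (read counts scaled to library size with edgeR's TMM factors) in benzamil ears, 0.985 to 3.49 CPM in DMSO ears and 12.8 to 14.1 CPM in untreated skin. Low values are thus coarse in untreated skin. The 8 cytokines together took 755 reads in benzamil ears, 2335 in DMSO ears and 48 in untreated skin. The libraries were made from the 3' ends of transcripts, so reads were not divided by gene length. Keratin and other keratinocyte markers were detected in every library, 8 of 8 on the list. Their summed level was 37529.6 to 41051 CPM in benzamil ears, 32941 to 41889 CPM in DMSO ears and 15319 to 16771 CPM in untreated skin.

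Of the 8 genes, 5 lie side by side on mouse chromosome 2 (mm10, coordinates from GENCODE M21) within 198 kb, all on the plus strand. In order they are Il36b (24153161 to 24160519), Il36g (24186476 to 24193568), Il36a (24215418 to 24225702), Il36rn (24276954 to 24283426) and Il1rn (24336853 to 24351494). Il1b lies 105 Mb further along the same chromosome on the minus strand (129364570 to 129371139). Il33 is on chromosome 19 (29925114 to 29960718, plus strand) and Il18 on chromosome 9 (50554827 to 50581840, plus strand). Both loci are thus outside the cluster. Il1b overlaps the antisense gene Il1bos, and Il18 overlaps Bco2 and Tex12 on the other strand. None of these 3 partners was in both tables, and whether the authors' counting used strand is not given in the sources used here, so reads of overlapping partners cannot be told apart.

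Promoter windows from RefSeq (GRCm38.p6, 250 bases before to 50 after the annotated start) were found for 7 of the 8 genes, and Il36a was not matched. They are shown for Il1b, which differed most between benzamil and DMSO ears, for Il36b and Il1rn, which were lower too and both hold an AP-1 match, and for Il18, which was higher. Capitals mark matches to AP-1 (TGANTCA) or C/EBP (TTNNGNAA), N being any base, searched on both strands.
Il1b, chr2:129371090-129371389, minus strand: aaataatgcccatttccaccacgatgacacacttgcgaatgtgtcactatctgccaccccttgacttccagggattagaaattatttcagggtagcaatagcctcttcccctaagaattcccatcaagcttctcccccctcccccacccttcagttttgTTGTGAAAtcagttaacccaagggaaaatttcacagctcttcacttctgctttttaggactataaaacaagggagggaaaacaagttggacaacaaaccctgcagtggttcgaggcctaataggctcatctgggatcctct
Il36b, chr2:24152922-24153221, plus strand: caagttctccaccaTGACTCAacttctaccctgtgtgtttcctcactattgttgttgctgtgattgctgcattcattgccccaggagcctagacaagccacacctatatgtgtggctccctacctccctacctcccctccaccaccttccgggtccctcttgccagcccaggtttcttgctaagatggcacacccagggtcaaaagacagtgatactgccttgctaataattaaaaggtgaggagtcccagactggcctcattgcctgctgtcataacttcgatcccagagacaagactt
Il1rn, first of 3 annotated starts, chr2:24336610-24336909, plus strand: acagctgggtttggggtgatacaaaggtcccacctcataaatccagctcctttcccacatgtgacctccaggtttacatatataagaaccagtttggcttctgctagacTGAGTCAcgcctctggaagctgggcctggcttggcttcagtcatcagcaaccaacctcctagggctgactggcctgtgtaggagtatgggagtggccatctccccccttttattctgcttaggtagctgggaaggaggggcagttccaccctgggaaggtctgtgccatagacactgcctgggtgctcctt
Il18, chr9:50554450-50554749, plus strand: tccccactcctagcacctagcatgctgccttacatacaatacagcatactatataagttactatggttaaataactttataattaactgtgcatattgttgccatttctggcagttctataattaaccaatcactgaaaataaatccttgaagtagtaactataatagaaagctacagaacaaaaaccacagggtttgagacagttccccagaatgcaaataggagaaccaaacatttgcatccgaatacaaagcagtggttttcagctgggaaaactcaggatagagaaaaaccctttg
The Il1b window holds a C/EBP match from -91 to -84 relative to the start, a motif found in 40.7% of 32851 mouse promoter windows of this length. The AP-1 match lies at -236 to -230 in Il36b and at -141 to -135 in Il1rn, and 7.81% of windows hold one. That share is per window, and Il1rn had 3 windows searched. No AP-1 match was in the windows at the other Il1rn starts. There was none for Il33 and Il1b, which were lower too, or for Il36g, Il36rn and Il18. The Il18 window holds neither motif. The NF-kB consensus as searched was in none of the windows of these 7 genes, against 4.51% of all windows. A match or its absence describes letters in the window and says nothing about binding. The 3' reads do not separate the 3 annotated starts of Il1rn.

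Benzamil ears had lower RNA of 5 of the 8 cytokine genes than DMSO ears and higher RNA of 1, at an adjusted p under 0.05 in edgeR's quasi-likelihood test (Benjamini-Hochberg over 5245 genes). The 5 were Il1b, Il36a, Il36b, Il33 and Il1rn, and the higher one was Il18. Of all tested genes, 22.0% were called, 12.1% lower and 9.91% higher. Il1b and Il36b passed the filter on low counts through their DMSO libraries alone. With all 9779 genes tested and no filter, again 5 of the 8 were lower and 1 higher, against 7.81% and 4.68% of all genes. The 8 genes were chosen with earlier results of these data known, so counts beside these shares are descriptions. The median log2 fold change was -0.89 over the 8 genes and -0.01 over all tested genes. In bulk skin, fewer cells of a type and less RNA per cell cannot be told apart.

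Il1b, the proinflammatory IL-1 agonist made mainly by activated myeloid cells, had the largest difference of the 8. Reads were 4, 1, 0 and 1 in benzamil ears, 97, 6, 25 and 16 in DMSO ears, and 0 and 0 in untreated skin. Scaled, these were 11.5, 3.17, 0 and 7.53 CPM in benzamil ears and 95.5, 15.4, 87.1 and 42.1 CPM in DMSO ears. As listed, every benzamil library lay below every DMSO library, although DMSO library 2 came close to benzamil library 1. The mean was 5.55 ± 5.03 CPM in benzamil ears against 60.0 ± 37.9 CPM in DMSO ears (SD, n = 4 each). The log2 fold change, benzamil over DMSO, was -3.26 ± 0.63 (approximate SE here and below; edgeR adjusted p = 0.000725). Pooled over libraries, the 6 reads against 144 made Il1b 11.1-fold lower, with an exact 95% interval of 4.96 to 30.6. Intervals and detection limits here cover counting error only and leave out the spread between libraries. If PCR copies were not collapsed, the counting error is understated as well. The 0 in benzamil library 3 allows up to 19.0 CPM, which is above DMSO library 2. Without benzamil library 1, which held 4 of the 6 reads, the log2 fold change was -4.10. Without DMSO library 1, which held 97 of the 144 reads, it was -2.80. Without the filter on low counts the adjusted p of Il1b in edgeR was 4.46e-05. The size of the difference depended on the method. The log2 fold change was -3.40 in DESeq2, -1.33 in limma on the deposited log2 values and -1.885 in the authors' deposited results.

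Il1rn, the antagonist that blocks the IL-1 receptor, was lower by less. It had 126, 136, 120.2 and 233 CPM in benzamil ears, 289.6, 225, 307 and 184 CPM in DMSO ears, and 38.3 and 70.5 CPM in untreated skin. The treated groups overlapped, because benzamil library 4 was above DMSO libraries 2 and 4. It was lower by a log2 fold change of -0.76 ± 0.23 (edgeR adjusted p = 0.0201), from a mean of 154 ± 53.3 CPM in benzamil ears and 251 ± 56.8 CPM in DMSO ears (SD, n = 4 each). This call did not hold when benzamil library 1, 2 or 3 or DMSO library 1 or 3 was left out, with adjusted p in edgeR between 0.0589 and 0.0897.

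Among the IL-36 agonists, Il36a and Il36b were lower in benzamil ears and Il36g was not called. Il36a had 86.2, 114, 145 and 143 CPM in benzamil ears, 247, 269, 261 and 245 CPM in DMSO ears, and 12.8 and 0 CPM in untreated skin. The DMSO libraries were close together, at 256 ± 11.5 CPM against 122 ± 27.9 CPM in benzamil ears (SD, n = 4 each), and the groups did not overlap. The log2 fold change was -1.12 ± 0.22 (edgeR adjusted p = 0.000679).

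Il36b had 28.7, 31.7, 25.3 and 22.6 CPM in benzamil ears, 68.0, 51.2, 59.2 and 94.8 CPM in DMSO ears, and no read in untreated skin. Again no benzamil library reached the lowest DMSO library. The log2 fold change was -1.27 ± 0.33 (edgeR adjusted p = 0.00746), and without the filter on low counts the adjusted p was 0.00662. Il36g, the third IL-36 agonist, had 25.9, 76.0, 75.9 and 97.9 CPM in benzamil ears, 106, 76.8, 94.1 and 92.2 CPM in DMSO ears, and 0 and 98.7 CPM in untreated skin. Its groups overlapped and the log2 fold change was -0.56 ± 0.35 (edgeR adjusted p = 0.261), so a difference was not resolved from the spread.

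Il36rn, the antagonist of the IL-36 receptor, had 209.9, 174, 145 and 128 CPM in benzamil ears, 251, 151, 237 and 195 CPM in DMSO ears, and 89.4 and 70.5 CPM in untreated skin. The treated groups overlapped over much of their range. Between them it differed by a log2 fold change of -0.31 ± 0.22 (edgeR adjusted p = 0.326).

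Il33 had 40.2, 72.8, 37.9 and 30.1 CPM in benzamil ears, 129, 92.2, 118 and 44.8 CPM in DMSO ears, and 51.1 and 113 CPM in untreated skin. DMSO library 4 lay inside the benzamil range, and the other DMSO libraries lay above it. The log2 fold change was -1.02 ± 0.34 (edgeR adjusted p = 0.0307). The call was lost in 6 of the 10 fits that left out a library, with adjusted p up to 0.147 in edgeR, and in DESeq2 (adjusted p = 0.0586). The authors' deposited table gives Il33 an adjusted p of 0.0696.

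Il18 went the other way. It had 207, 241, 202 and 181 CPM in benzamil ears, 47.3, 46.1, 76.7 and 60.6 CPM in DMSO ears, and 89.4 and 14.1 CPM in untreated skin. Every benzamil library was above every DMSO library and above both untreated libraries. The mean was 208 ± 24.8 CPM in benzamil ears and 57.6 ± 14.3 CPM in DMSO ears (SD, n = 4 each), a log2 fold change of 1.91 ± 0.25 (edgeR adjusted p = 8.6e-06).

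**Figure D1:**
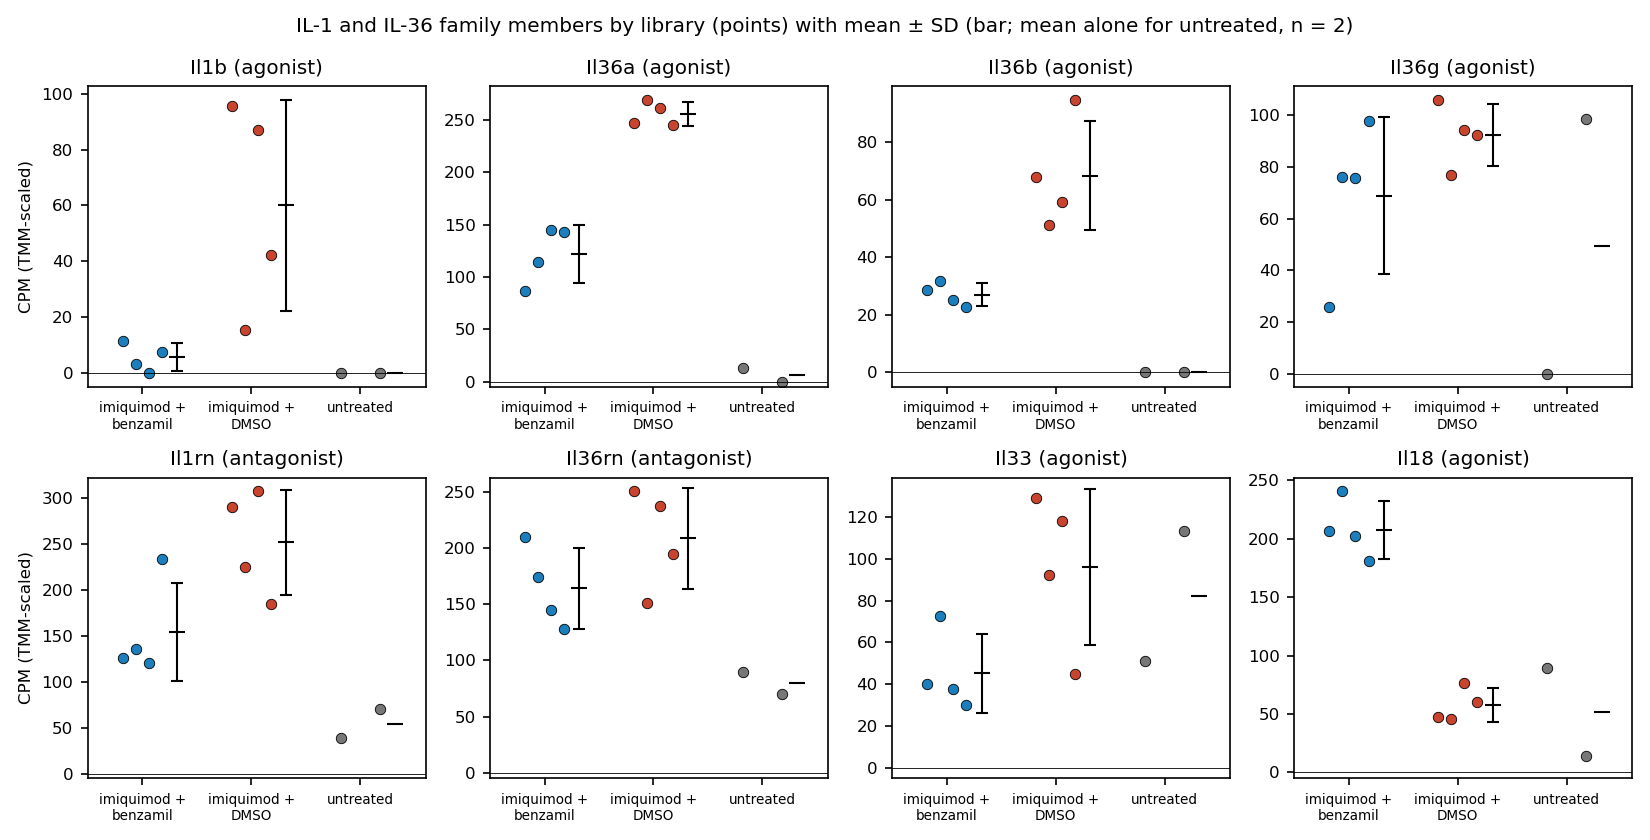
Level of each of the 8 cytokine genes in CPM (TMM-scaled) in every library of the benzamil, DMSO and untreated groups, with points for libraries and a bar for the mean ± SD (the mean alone for untreated, n = 2). Benzamil and DMSO points separate for Il1b, Il36a, Il36b and Il18, and Il18 is the one of these with the benzamil points on top.

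As listed, the groups did not overlap for 4 of the 8 genes, Il1b, Il36a, Il36b and Il18, against 24.5% of all tested genes. The calls for these 4 held in each of the alternatives that gave them a value. Il1b had no value with the benzamil and DMSO libraries fitted alone, where it did not pass the filter on low counts. For Il1b the adjusted p was at most 0.00743 over 17 alternatives, for Il36a at most 0.00876, for Il36b at most 0.0306 and for Il18 at most 0.000195, each over 18 alternatives.

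In order of mean level, benzamil ears ran from Il18 (208 CPM) through Il36rn (164), Il1rn (154), Il36a (122), Il36g (68.9), Il33 (45.3) and Il36b (27.1) to Il1b (5.55 CPM). DMSO ears ran from Il36a (256 CPM) through Il1rn (251), Il36rn (209), Il33 (96.1), Il36g (92.4), Il36b (68.3) and Il1b (60.0) to Il18 (57.6 CPM). Il18 thus stood first in benzamil ears and last in DMSO ears. Many neighbours lay within 1 SD of each other, among them Il36a and Il1rn, Il33 and Il36g, and Il1b and Il18 in DMSO ears, and Il36rn and Il1rn in benzamil ears. As a share of the reads of all 8 genes, Il18 made up 27.0% in benzamil ears (204 of 755), 4.75% in DMSO ears (111 of 2335) and 16.7% in untreated skin (8 of 48). Il1b made up 0.795% in benzamil ears, 6.17% in DMSO ears and 0 of 48 reads in untreated skin.

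**Figure D2:**
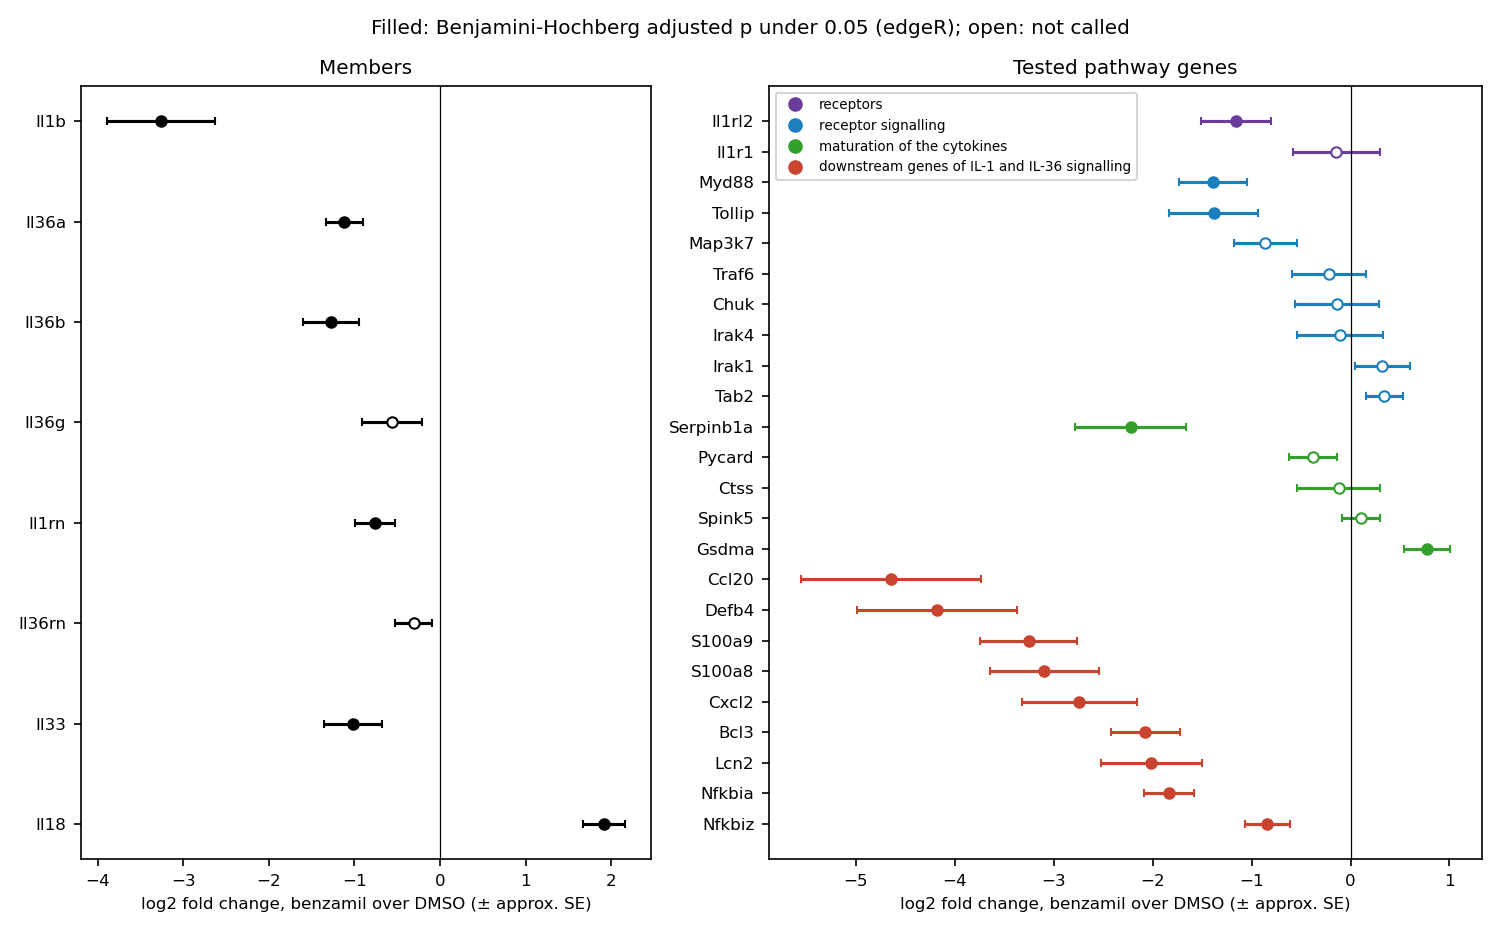
Log2 fold change of benzamil over DMSO with its approximate standard error for the 8 cytokine genes (left) and for the 24 tested genes of the pathway (right). Filled points have an adjusted p under 0.05 in edgeR, and Il18 is the only one of the 8 to the right of 0.

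Relative to untreated skin, the DMSO ears had higher RNA of 5 of the 8 genes and lower RNA of none (all 8 fitted fold changes were positive in edgeR), against 18.4% of tested genes called, 9.88% higher and 8.48% lower. The 5 were Il36a, Il36b, Il1b, Il1rn and Il36rn. Without the filter on low counts the count was again 5 of 8, against 7.24% of all genes higher. As listed, the lowest DMSO library was above the highest untreated one for all 5, where groups of 4 and 2 libraries did not overlap for 48.0% of all tested genes. For Il1b this order is not resolved, because DMSO libraries 2 and 4, at 15.4 and 42.1 CPM, lay below the 42.3 CPM that 0 reads allow in untreated library 2. The median log2 fold change was 1.80 over the 8 genes and 0.18 over all tested genes. This comparison and the previous one share the DMSO libraries.

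Il36a had 524 reads in DMSO ears and 1 in untreated skin, a ratio of 37.7 in CPM with an exact 95% interval of 6.74 to 1492 (edgeR adjusted p = 9.28e-06). That 1 read came from untreated library 1. Il36b and Il1b had no read in untreated skin, where 0 allows up to 38.3 and 42.3 CPM in the single libraries. Counting 3 reads over both untreated libraries, Il36b was at least 3.41-fold higher in DMSO ears (edgeR adjusted p = 0.00356) and Il1b at least 3.45-fold higher (edgeR adjusted p = 0.0355). The Il1b call was lost without DMSO library 1 (adjusted p = 0.061 in edgeR) and without either untreated library (0.144 without the first, 0.107 without the second).

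Both antagonist genes were also higher in DMSO ears than in untreated skin. Il1rn averaged 251 ± 56.8 CPM in DMSO ears (n = 4) and 54.4 ± 22.8 CPM in untreated skin (n = 2). The log2 fold change was 2.22 ± 0.48 (edgeR adjusted p = 0.00207). It was 2.87 without untreated library 2 and 1.95 without untreated library 1. Il36rn averaged 209 ± 45.1 CPM in DMSO ears and 80.0 ± 13.4 CPM in untreated skin, a log2 fold change of 1.38 ± 0.42 (edgeR adjusted p = 0.0215). The Il36rn call was lost without either untreated library (adjusted p = 0.0749 and 0.0847 in edgeR).

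The remaining 3 genes were not called between DMSO ears and untreated skin. Log2 fold changes were 0.98 ± 0.67 for Il36g (edgeR adjusted p = 0.322), 0.28 ± 0.54 for Il33 (0.747) and 0.06 ± 0.56 for Il18 (0.956). Their untreated libraries were far apart. Il36g had 0 and 7 reads, Il33 had 4 and 8, and Il18 had 7 and 1. For these genes the untreated level rests on few reads, and without untreated library 2 Il36g was called, with an edgeR adjusted p of 0.0184.

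In benzamil ears against untreated skin, 2 of the 8 genes were called, both higher, where 4.04% of tested genes were called, 2.44% higher and 1.60% lower. Il36a had 108 reads in benzamil ears and 1 in untreated skin, a ratio of 16.9 in CPM with an exact 95% interval of 2.97 to 673 (edgeR adjusted p = 0.00354), and the DESeq2 test did not call it (adjusted p = 0.0697). Il18 averaged 208 ± 24.8 CPM in benzamil ears (n = 4) and 51.8 ± 53.3 CPM in untreated skin (n = 2), a log2 fold change of 1.97 ± 0.48 (edgeR adjusted p = 0.0203). The fold change was 3.97 without untreated library 1, and the call was lost without untreated library 2 (1.38, edgeR adjusted p = 0.15) and with scaling by library totals alone (adjusted p = 0.0506).

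The other 6 genes did not pass the test there. Il1rn had a log2 fold change of 1.46 ± 0.51 (edgeR adjusted p = 0.108), Il36rn 1.08 ± 0.43 (0.162), Il36g 0.42 ± 0.73 (0.797) and Il33 -0.74 ± 0.61 (0.53). Il36b was at least 1.41-fold higher by the 3-read floor (edgeR adjusted p = 0.108). For Il1b no fold is given, since its pooled level in benzamil ears was under that floor. As listed, the groups did not overlap for 5 genes, Il1rn, Il36a, Il36b, Il36rn and Il18, against 32.4% of all tested genes. For Il36b this is not resolved, because its benzamil libraries, at 22.6 to 31.7 CPM, all lay below the 38.3 and 42.3 CPM that 0 reads allow in the untreated libraries.

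Setting each agonist against its antagonist within a library gives ratios of reads that do not depend on scaling between libraries. They are given as descriptions, without a test. Reads of Il1b per read of Il1rn were 0.0909, 0.0233, 0 and 0.0323 in benzamil ears, 0.33, 0.0682, 0.284 and 0.229 in DMSO ears, and 0 and 0 in untreated skin. Pooled, Il1b gave 4.20% of the reads of this pair in benzamil ears, 21.1% in DMSO ears and none of 8 in untreated skin. The treated groups overlapped, because DMSO library 2 lay below benzamil library 1.

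Il36b per read of Il36rn was 0.137 to 0.182 in benzamil ears and 0.25 to 0.486 in DMSO ears, with no overlap, and 0 in both untreated libraries. Il36a per read of Il36rn was 0.411, 0.655, 1.0 and 1.12 in benzamil ears, 0.984, 1.78, 1.1 and 1.26 in DMSO ears, and 0.143 and 0 in untreated skin. Here benzamil libraries 3 and 4 reached into the DMSO range. Il36g per read of Il36rn ran from 0.123 to 0.765 in benzamil ears and from 0.397 to 0.508 in DMSO ears, so the DMSO range lay inside the benzamil range. The 3 agonists together made up 53.5% of the IL-36 reads in benzamil ears, 65.5% in DMSO ears and 40.0% in untreated skin, Il36rn being the rest. Per library their sum over Il36rn was 0.671, 1.27, 1.7 and 2.06 in benzamil ears and 1.68, 2.63, 1.75 and 2.22 in DMSO ears, which overlapped.

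**Figure D3:**
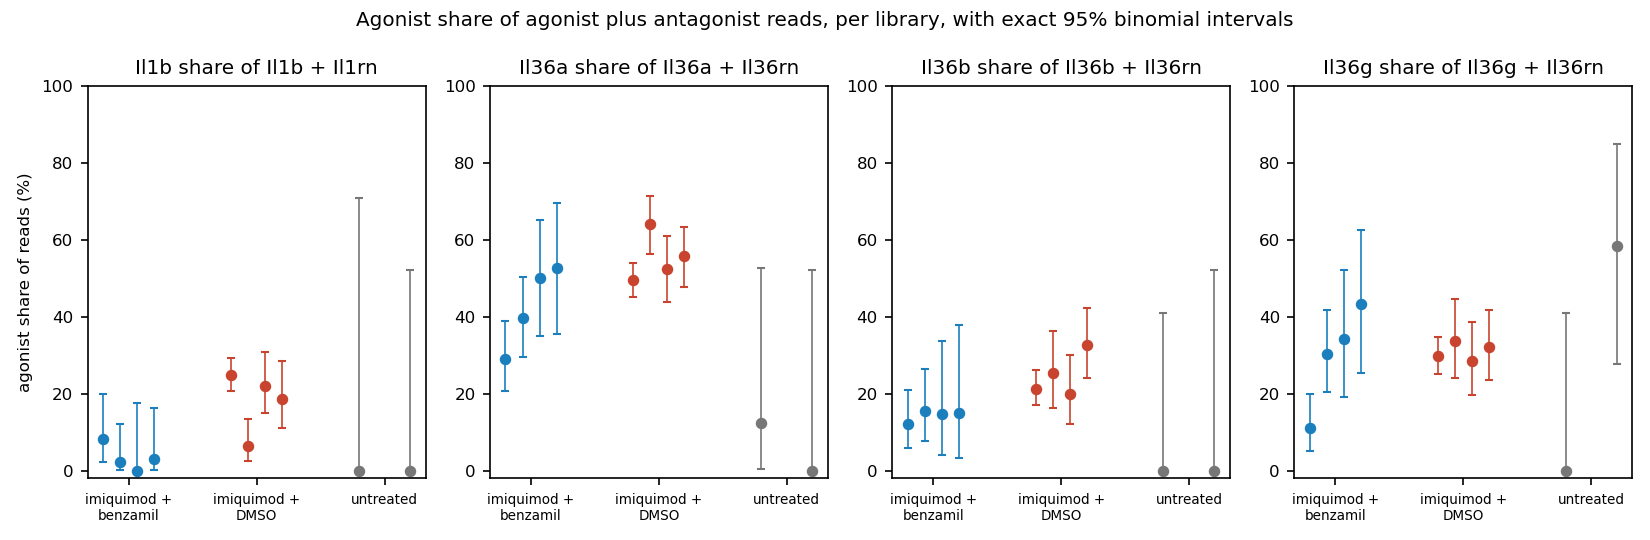
Agonist share in percent of the reads of an agonist and its antagonist, for Il1b with Il1rn and for Il36a, Il36b and Il36g each with Il36rn, in every library of the benzamil, DMSO and untreated groups, with exact 95% binomial intervals that cover counting error only. The benzamil and DMSO points do not overlap for Il36b, although their intervals do, and the points overlap for the other pairs. The intervals are widest in untreated skin.

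Beyond the 8 genes, 66 genes of the pathway were listed by role. Of these, 43 were in both tables and 24 were tested. The lists were chosen with earlier results of these data known, so their counts beside the share of all genes are descriptions. Between benzamil and DMSO ears, 13 of the 24 were lower and 1 was higher, against 12.1% and 9.91% of all tested genes. However, 11 of the 24 would not have passed the filter without their DMSO libraries. Without the filter, 15 of the 43 were lower and 1 was higher, against 7.81% and 4.68% of all genes. Il1a, which encodes the other IL-1 agonist, fell below the filter on low counts. It had 0, 1, 0 and 0 reads in benzamil ears, 32, 9, 7 and 0 in DMSO ears, and 0 and 3 in untreated skin. Pooled, its level in benzamil ears was 22.1-fold lower than in DMSO ears, with an exact 95% interval of 3.78 to 891, and without the filter its adjusted p in edgeR was 0.00433. Il1a was singled out after its values were seen.

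Of the receptors, 2 of 8 were tested and Il1rl2, the IL-36 receptor chain, was lower in benzamil ears. It had 9, 10, 4 and 2 reads in benzamil ears and 62, 24, 18 and 18 in DMSO ears, a log2 fold change of -1.16 ± 0.35 (edgeR adjusted p = 0.0203). Neither tested receptor would have passed the filter without its DMSO libraries. With no filter 1 of 5 was lower, against 7.81% of all genes, namely Il1rl2 with an adjusted p of 0.0209 in edgeR. The call was lost when benzamil library 1 or 4 or DMSO library 1 was left out, with adjusted p from 0.0507 to 0.0665 in edgeR. Where 12.1% of all tested genes were lower, 2 of 8 tested signalling genes were. They were the adaptor gene Myd88, at -1.39 ± 0.34 (edgeR adjusted p = 0.00511), and Tollip, which encodes a brake on the same receptors, at -1.38 ± 0.45 (0.0269). These 2 also passed the filter through DMSO libraries alone. Without it they were the 2 lower genes of 13, against 7.81% of all genes, with edgeR adjusted p of 0.00421 for Myd88 and 0.0244 for Tollip. Tollip was not called by DESeq2 (adjusted p = 0.0682) or, in edgeR, without benzamil library 1 (0.0638) or 3 (0.0726). Myd88 was also higher in DMSO ears than in untreated skin, with 134 reads against 2, a ratio of 4.82 with an interval of 1.31 to 40.2 (edgeR adjusted p = 0.0488). That call was lost in 11 of 18 alternatives.

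Among the genes for maturation of the cytokines, 5 of 22 were tested. Serpinb1a, an inhibitor of neutrophil serine proteases, was lower in benzamil ears by a log2 fold change of -2.22 ± 0.56 (edgeR adjusted p = 0.00602). With 1 library left out, Serpinb1a ran from -3.44 (without benzamil library 1) to -1.87. It passed the filter through its DMSO libraries alone, with 8 reads in benzamil ears and 87 in DMSO ears, and without the filter its adjusted p in edgeR was 0.0025. Gsdma, a pore-forming gasdermin of the epidermis, was higher by 0.77 ± 0.23 (edgeR adjusted p = 0.0189), which was lost with scaling by library totals (0.116), in DESeq2 (0.0689) and in 5 of the 10 fits that left out a library. Spink5, which encodes a protease inhibitor of the epidermis, was higher in DMSO ears than in untreated skin by 1.11 ± 0.26 (edgeR adjusted p = 0.00424). It was not called without untreated library 1 (0.0521). Casp1, the gene for the protease that cuts IL-1β and IL-18, was below the filter. It had 14 reads in benzamil ears, 29 in DMSO ears and 0 in untreated skin. Scaled to depth, the ratio of benzamil to DMSO ears was 1.05, with an exact interval of 0.512 to 2.05. Its adjusted p in edgeR without the filter was 0.896, so a difference was not resolved. Against untreated skin that adjusted p was 0.268 for DMSO ears and 0.381 for benzamil ears. Casp1 was named after its values were seen.

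The downstream genes are targets of IL-1 and IL-36 signalling in skin, and 9 of 19 were tested. All 9, against 12.1% of all tested genes, were lower in benzamil ears than in DMSO ears, with a median log2 fold change of -2.74. Of these, 5 passed the filter through their DMSO libraries alone, so the count was repeated without the filter. There 10 of 13 were lower, against 7.81% of all genes, and Cxcl1, Cxcl3 and Cxcl5 were not called. The list was chosen with earlier results of these data known, so an excess over that share is no test of it. The alarmin genes S100a8 and S100a9, abundant in neutrophils and inflamed keratinocytes, were lower by log2 fold changes of -3.09 ± 0.55 (edgeR adjusted p = 0.000298) and -3.25 ± 0.49 (5.39e-05). Without benzamil library 4 these were -4.23 and -3.86. The weakest values with 1 library left out were -2.72 for S100a8 and -2.90 for S100a9.

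Defb4, an antimicrobial peptide gene, had 2 reads in benzamil ears against 94 in DMSO ears, 21.6-fold lower with an interval of 5.83 to 181 (edgeR adjusted p = 0.000696). Ccl20, a chemokine for CCR6-bearing cells, had 1 read against 79, 36.4-fold lower with an interval of 6.34 to 1455 (edgeR adjusted p = 0.000795). These intervals are wide because the benzamil reads are so few, and all of them came from benzamil library 4 for Defb4 and library 3 for Ccl20. The neutrophil chemokine gene Cxcl2 was lower by -2.74 ± 0.58 (edgeR adjusted p = 0.00156) and Lcn2, which encodes an iron-scavenging protein, by -2.02 ± 0.51 (0.00618). The Lcn2 call was lost without benzamil library 1 (0.0521), and without benzamil library 4 its log2 fold change was -3.39.

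The NF-kB regulators were lower as well. Log2 fold changes were -1.83 ± 0.25 for Nfkbia (edgeR adjusted p = 1.99e-05), -2.07 ± 0.35 for Bcl3 (0.000184) and -0.84 ± 0.23 for Nfkbiz (0.00961), the last of which was lost without benzamil library 2 (0.0535). In DMSO ears against untreated skin, 6 of the 9 downstream genes were higher, against 9.88% of all tested genes. Without the filter on low counts, 9 of 13 were, against 7.24% of all genes. Nfkbia was higher by 1.43 ± 0.36 (edgeR adjusted p = 0.00681), Nfkbiz by 1.68 ± 0.44 (0.00974), S100a8 by 6.61 ± 1.02 (7.7e-05) and S100a9 by 7.09 ± 0.94 (9.12e-06). S100a8 was at 9.07 without untreated library 1 and 5.97 without library 2. With 1 library left out, S100a9 ran from 6.74 to 8.12 and Nfkbia from 1.14 to 2.13. Bcl3 was at least 4.13-fold higher (0.00178) and Cxcl2 at least 3.91-fold higher (0.029), both from 0 untreated reads. Without untreated library 1 the calls of Nfkbia, Nfkbiz and Cxcl2 were lost (adjusted p = 0.103, 0.092 and 0.132 in edgeR), and Cxcl2 was also lost without untreated library 2 (0.0948).

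Markers of cell types were summed in the same libraries, and only some lists differed between benzamil and DMSO ears. Of 15 neutrophil markers, 5 were in both tables, and their summed level was 6.32 to 28.7 CPM in benzamil ears, 66.2 to 131 CPM in DMSO ears and 0 in both untreated libraries. Retnlg was at 0 in all benzamil libraries, and all 5 were at 0 in untreated skin. Only 1 of the 5 passed the filter on low counts and was tested. Benzamil and DMSO ears thus differed in neutrophil markers in the same direction as Il1b, Il36a and Il36b. For 15 monocyte and macrophage markers, 10 of them in both tables, the sums overlapped, at 25.3 to 173 CPM in benzamil ears, 81.9 to 127 CPM in DMSO ears and 51.1 to 113 CPM in untreated skin.

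Sebaceous gland genes, 4 of 4, summed to 4177 to 7205 CPM in benzamil ears, 1487 to 2928 CPM in DMSO ears and 5656 to 8266 CPM in untreated skin. Of these, 3 were called higher in benzamil ears than in DMSO ears, the direction of Il18, whereas Mgst1 averaged 111 CPM in benzamil ears and 177 CPM in DMSO ears. Most of the sum was Scd1, at 4068 CPM in benzamil ears and 1811 CPM in DMSO ears. The 4 skeletal muscle genes summed to 354 to 741 CPM in benzamil ears and 76.4 to 501.7 CPM in DMSO ears. In untreated skin they summed to 1326 to 1405 CPM. All 4 were called higher in benzamil ears than in DMSO ears, also the direction of Il18, although the sums overlapped. Fibroblast genes, 6 of 6, summed to 417 to 1219.7 CPM in benzamil ears, 367 to 777 CPM in DMSO ears and 5769 to 13517 CPM in untreated skin. The fibroblast sums therefore separate treated from untreated skin. Most of the sum in untreated skin was collagen, with means of 5791 CPM for Col1a1, 2081 for Col1a2 and 1410.3 for Col3a1. Lum did not go that way, with means of 20.5 CPM in benzamil ears, 14.8 in DMSO ears and 12.8 in untreated skin. Dendritic and Langerhans cell genes, 6 of 8, summed to 331 to 362 CPM in benzamil ears, 299.6 to 366 CPM in DMSO ears and 371 to 409 CPM in untreated skin. The 2 of 7 T cell genes in both tables summed to 97.9 to 117 CPM in benzamil ears, 87.1 to 100.5 CPM in DMSO ears and 153 to 155 CPM in untreated skin. Most of that sum was Thy1, with means of 79.4, 71.1 and 147 CPM in the same order. Trbc2 went the other way against untreated skin, with means of 28.5, 22.5 and 7.05 CPM. None of 4 endothelial genes was in both tables. The share of reads on ribosomal RNA genes was 31.0% to 45.7% in benzamil ears, 22.1% to 28.8% in DMSO ears and 34.2% to 38.6% in untreated skin. The part of these differences in the cytokine results was not tested.

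**Figure D4:**
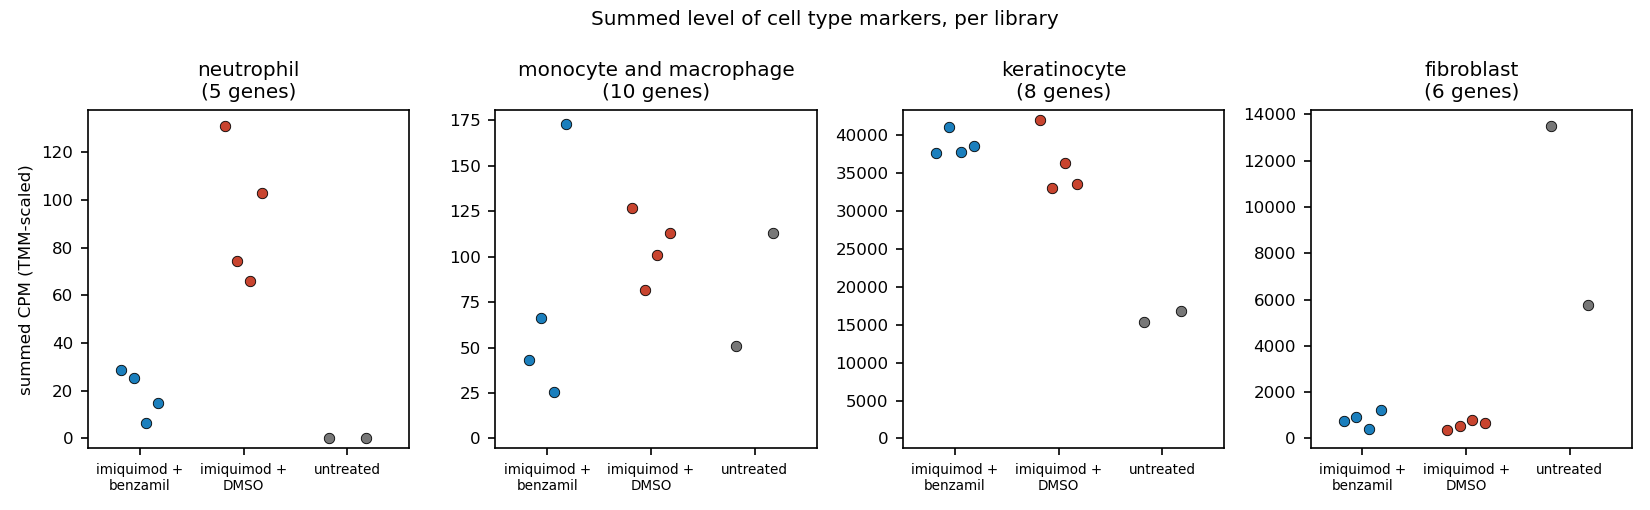
Summed CPM of neutrophil (5 genes), monocyte and macrophage (10), keratinocyte (8) and fibroblast (6) markers in every library of the benzamil, DMSO and untreated groups, each panel on its own linear axis. Neutrophil markers are at 6.32 to 28.7 CPM in benzamil ears and 66.2 to 131 CPM in DMSO ears.

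The genes whose log2 CPM ran most like each cytokine over the 8 treated libraries were found by Pearson's r among 5245 genes, as a description without a p. The 8 libraries fall into the benzamil and DMSO groups and differ in depth, which every such r shares. For Il1b they were Vbp1 (0.96), Larp4b (0.95) and Psors1c2 (0.936), and for Il18 Timp3 (0.988), Ahnak (0.982) and Washc2 (0.977). For Il36a they were Plbd1 (0.972), Egln1 (0.955) and Abracl (0.952), and for Il36b Rpl36al (0.983), Eif4g2 (0.951) and Txndc17 (0.949). No gene stood in more than 1 of these 4 lists. Il36g was most like Ago2 (0.982), Il36rn most like Dcaf7 (0.978), Il1rn most like Pmpca (0.959) and Il33 most like Sec23b (0.966). Among the cytokines themselves, r was 0.819 for Il1b with Il36b and 0.801 for Il1b with Il1rn. Il18 ran against all other 7, from -0.92 with Il36a to -0.417 with Il36rn.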

How the data were processed

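Libraries were made from 500 ng of RNA per sample with a 3' mRNA kit with unique molecular identifiers and sequenced with a 150-cycle kit, per the labels' protocols. Per the submitters' processing notes, STAR, featureCounts, DESeq2 and mm10 were used, without versions or roles. The sources used here do not say whether counting used strand or collapsed the identifiers. The authors deposited log2 values from a variance-stabilising transform in 2 tables, normalized separately, and 2 result tables with mean signal (counts divided by size factors), log2 fold changes, a Wald score, p-values and adjusted p-values. A further deposited count table holds only human identifiers, 61533 of 61533, and entered no comparison.

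Reads were recovered by inverting the transform. In every library all values were whole within 0.001 reads, and 39116 of 39116 DMSO values were equal between the tables. The 9779 genes in both tables were joined. The deposited unit is log2, so edgeR ran on recovered reads, with limma on the deposited log2 values as an alternative. All 10 libraries entered 1 edgeR fit (4.0.16, R 4.3.3; quasi-likelihood, group means, TMM, filterByExpr with 10 reads at typical depth and a total of 15), which tested 5245 genes with a common biological coefficient of variation of 0.195. Calls needed a Benjamini-Hochberg adjusted p under 0.05, and the SE is the fold change divided by the root of F. DESeq2 was 1.42.0 and limma 3.58.1. The inversion and the tests were checked on simulated data. Detection limits are 3 reads. The 8 IDs matched GENCODE M21, 4 of them under older symbols.

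All 8 members are named. Of the pathway lists every gene called in benzamil over DMSO or DMSO over untreated is named, and likeness gives 3 genes per member. Members and lists were chosen with earlier results of these data known. Alternatives were scaling, filter, test, table, ribosomal RNA, replicate block and leaving out each library.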

Additional observations from a re-analysis of the deposited data

Results flagged for a closer look

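In the 4 benzamil libraries, Il1rn was at 233 CPM in library 4, apart from 120.2 to 136 CPM in the others. The gap to the nearest library was 0.859 of the group's range, above Dixon's 95% critical value of 0.829 for 4 samples. It was the 1 group flagged of 26 tested, and chance flags about 1 in 20.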

How the results depend on the processing

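Il1b, Il36a, Il36b and Il18 kept their calls between benzamil and DMSO ears in all alternatives that gave a value, and Il1rn and Il33 lost theirs in 5 and 7. Of 800 single-gene fold changes under alternatives, 743 kept direction and side of the threshold, 51 lost the call, 1 gained it and 5 reversed. The reversals came from single libraries, with ranges over the 10 left-out libraries of -0.52 to 2.07 for Il18 in DMSO over untreated (also -0.028 without DMSO library 3), -0.072 to 1.11 for Il33 there, -0.54 to 7.44 for Il36g in benzamil over untreated and -1.11 to 0.072 for Il33 there, none called in all libraries. Leaving out 1 library gave 650 to 1391 calls for benzamil over DMSO, lowest without DMSO library 1, against 1154 from all libraries, 439 to 980 for DMSO over untreated (963) and 100 to 224 for benzamil over untreated (212). It gave 4 to 6, 3 to 5 and 1 to 2 members called in these comparisons, where a single untreated library was assumed to vary like the others. Members called in benzamil over untreated were 1 with library totals alone and 1 with DESeq2. In DMSO over untreated limma called 2910 genes, 2369 higher and 541 lower, against 518 and 445 in edgeR; the cause was not tested. With library totals alone the median of all genes shifted by -0.24 in benzamil over DMSO, where 269 were higher and 979 lower against 520 and 634, and by -0.15 in benzamil over untreated, where 64 were higher and 102 lower against 128 and 84.

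Median ratios of agonist to antagonist moved when taken from the deposited log2 values, which compress low reads. Il1b to Il1rn became 0.185 in benzamil ears, 0.377 in DMSO ears and 0.265 in untreated skin, and Il36b to Il36rn 0.347, 0.434 and 0.203 in the same order. Il36a to Il36rn became 0.297 in untreated skin and Il36g to Il36rn 0.545 in DMSO ears. With 0.5 reads added, Il1b to Il1rn was 0.117 and Il36b to Il36rn 0.0788 in untreated skin.

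Benzamil and DMSO libraries with the same replicate number deviated together with correlations of 0.0686, 0.000694, 0.0406 and 0.0676. Pairs with unlike numbers ran from -0.129 (benzamil library 3 with DMSO library 1) to 0.17 (benzamil library 2 with DMSO library 1). The values thus show no pairing by number, but in libraries this shallow they cannot exclude it. With a replicate block, 466 genes were higher and 594 lower in benzamil over DMSO, with 6 members called, 972 were called in DMSO over untreated and 146 in benzamil over untreated.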

Other observations

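In the deposited count table with human identifiers, the identifier of IL1B had 0 reads in every benzamil library, 6, 1, 1 and 0 in the DMSO libraries, and 0 in both untreated libraries. The human names of all 8 cytokine genes together also had 0 reads in every benzamil library. They had 9, 2, 1 and 1 in the DMSO libraries, and 1 and 0 in the untreated libraries. The 0 reads in benzamil ears are thus not particular to IL1B. That table held 15613 to 43854 reads in benzamil ears, 35958 to 136930 in DMSO ears and 8752 to 10394 in untreated skin. How its reads were assigned to human genes is not given in the sources used here.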
